A study of Mus musculus with 15 samples.

Results

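The retinoid handling genes described here were 9 genes of the 20144 named on the array: the carriers Rbp7 and Rbp2, the oxidising enzymes Rdh10, Aldh1a1 and Aldh1a3, the reductase Dhrs3, the clearing enzyme Cyp26b1, the carotene-cleaving enzyme Bco1 and the receptor Rarb. They were the probes whose accession in the array files maps to these symbols, 10 of 39429 probes, with 1 probe per gene and a pair for Rarb. The set was picked from measured log2 ratios of these same arrays, with the differences between the groups already known, so the levels and differences given for them are a description and carry no test. The arrays measured RNA from small-intestinal crypts, the epithelial pits that hold the stem cells and their dividing progeny, of mice aged 6 to 8 weeks. Crypts were taken 24 h after an IgG control antibody (control group), after a single dose of antibodies to Notch1 and to Notch2 (N1N2 group), or after those Notch antibodies combined with 30 mg/kg of anti-Lrp6, which binds a Wnt co-receptor (N1N2 plus Lrp6 group). For the Notch antibodies only a concentration, 1 mg/mL, is labelled, and the series' design calls the control mice untreated where the sample labels name the IgG. Each group had 5 arrays, called biological replicates in the design. The sources used here do not say if 1 array stands for 1 mouse or for pooled mice. The antibodies were given to whole mice, so the receptors were blocked in every cell type the antibodies reached, and all values are from bulk RNA, in which fewer cells of a type and less RNA per cell cannot be told apart.

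Vitamin A reaches the small intestine as retinyl esters and as carotene, which is cleaved to retinal inside the enterocyte. Cellular retinol-binding proteins hold retinol and retinal in the cytosol and hand them to enzymes, and retinol is either esterified for export or oxidised in steps, first to retinal and then to retinoic acid. Retinoic acid binds nuclear receptors that switch on, among other genes, the receptor Rarb itself and the enzymes that reduce retinal or degrade retinoic acid, which closes a feedback loop.

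Crypt RNA was labelled red and a universal mouse reference RNA green on each array, without a dye swap, and each value is the log2 of the crypt signal over that of the reference. A ratio compares a gene with itself across arrays and does not rank genes by abundance. Between 70.1% and 79.8% of spots were well above background in red on the control and N1N2 arrays, and 57.2% to 73.6% on the N1N2 plus Lrp6 arrays. The arrays lay on 6 slides. Only slide 2 held more than 1 group, with control replicates 4 and 5 and N1N2 replicates 1 and 2, while slide 5 held N1N2 plus Lrp6 replicates 1 to 4. Gut epithelial markers, which crypts share with villi, were well above background on all 15 arrays for 9 of 9 genes. Lung markers were higher with the Lrp6 antibody, and 4 of the 5 tested rose against the N1N2 group. The summed red intensity of the lung list was 2718 to 20491 there, against 478 to 693 in the N1N2 group and 478 to 1353 in the control group. Summed red intensities of marker lists, here and below, cover every probe of the listed genes, tested or not, with the background subtracted. The part of the lung markers in the results was not tested.

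Promoter windows from RefSeq (build GRCm38.p6, 250 bases before to 50 after the start of transcription) were on hand for 7 of the 9 genes. They were searched on both strands for direct repeats of nuclear receptor half-sites (AGGTCA, where the first base may also be G and the third also T) spaced by 1, 2 or 5 bases, and for GTGGGAA, the core letters known for the DNA-binding partner of Notch. No window of these genes matched more than 1 of the motifs. The 3 upstream stretches that held a match are shown for Rbp7, the gene with the largest difference, and for Rarb and Bco1, which are textbook targets of retinoid control. Each is the 250 bases before the start site, 5′ to 3′ on the strand of the gene, with the match in capitals.
Rbp7 (chr4:149454969-149455218, minus strand): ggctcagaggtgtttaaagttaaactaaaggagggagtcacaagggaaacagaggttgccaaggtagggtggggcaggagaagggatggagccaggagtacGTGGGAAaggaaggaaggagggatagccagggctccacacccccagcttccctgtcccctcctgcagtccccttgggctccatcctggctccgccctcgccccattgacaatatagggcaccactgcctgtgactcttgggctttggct
Rarb (chr14:16575477-16575726, minus strand): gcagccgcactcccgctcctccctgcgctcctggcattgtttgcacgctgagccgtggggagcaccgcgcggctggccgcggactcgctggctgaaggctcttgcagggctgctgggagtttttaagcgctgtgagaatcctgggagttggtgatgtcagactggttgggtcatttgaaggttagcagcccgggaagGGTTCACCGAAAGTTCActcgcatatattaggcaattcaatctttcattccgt
Bco1 (chr8:117095615-117095864, plus strand): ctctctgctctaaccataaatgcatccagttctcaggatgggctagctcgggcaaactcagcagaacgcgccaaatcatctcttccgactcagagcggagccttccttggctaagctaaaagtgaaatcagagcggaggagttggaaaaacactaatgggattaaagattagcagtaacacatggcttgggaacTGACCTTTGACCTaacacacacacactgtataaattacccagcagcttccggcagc

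In the Rbp7 window the capitals mark GTGGGAA, whose first base lies 149 bases before the start site. Of all 32851 promoter windows, 6.38% hold these letters on either strand. In the Rarb window the capitals mark a direct repeat with 5 bases between the half-sites, beginning 53 bases before the start, an arrangement found in 0.0974% of windows. In the Bco1 window they mark a repeat with 1 base between the half-sites, read on the other strand, found in 0.222% of windows. The windows of Rbp2, Aldh1a1, Dhrs3 and Cyp26b1 held none of the letters searched. A match is a description of the letters and not a site of binding.

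Rbp7 encodes a cellular retinol-binding protein of the small family of cytosolic lipid carriers. In the control group the log2 ratio of its probe (A_52_P343627) was 5.39, 5.24, 4.91, 5.27 and 5.36 on replicates 1 to 5. In the N1N2 group it was 1.90, 1.84, 2.03, 1.81 and 2.66. In the N1N2 plus Lrp6 group it was 4.72, 4.12, 4.08, 4.47 and 4.27. The values of the 3 groups formed separate bands with no overlap: the control arrays were highest, the arrays with both treatments lay below them, and the N1N2 arrays were lowest. The narrowest gap, between the lowest control array and the highest N1N2 plus Lrp6 array, was 0.19 on the log2 scale. The widest, between the lowest control and the highest N1N2 array, was 2.25.

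The group means of Rbp7 were 5.23 ± 0.19, 2.05 ± 0.35 and 4.34 ± 0.27 (SD, n = 5 each) in the control, N1N2 and N1N2 plus Lrp6 groups. Rbp7 was thus 9.11-fold lower in the N1N2 group than in the control group, a log2 difference of -3.19 ± 0.16 (SE). It was 4.89-fold higher with the Lrp6 antibody added than in the N1N2 group (log2 difference 2.29 ± 0.16). With both treatments it was still 1.86-fold lower than in the control group (log2 difference -0.90 ± 0.16). These comparisons share arrays, so they are not independent of one another. With the arrays scaled to the same spread the differences were -4.35, 2.44 and -1.91, of which only the first was past the threshold.

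Replicate 5 of the N1N2 group, at 2.66, stood above the other N1N2 arrays, which lay between 1.81 and 2.03. Leaving out 1 array at a time, the difference from the control ranged from -3.34 to -3.13. Within slide 2, where both groups were hybridised together, the control arrays 4 and 5 were at 5.27 and 5.36 and the N1N2 arrays 1 and 2 at 1.90 and 1.84, a difference of -3.45. On the 1 array with both treatments that lay outside slide 5, replicate 5, the value was 4.27, which lay 2.23 above the N1N2 mean and 0.96 below the control mean.

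The difference in Rbp7 was in the crypt channel. The raw red intensity of the probe was 6353 to 8619 on the control arrays, 537 to 1236 on the N1N2 arrays and 1855 to 6445 on the N1N2 plus Lrp6 arrays, over a local red background of at most 35. The green intensity, from the reference RNA, stayed between 68 and 106 on all 15 arrays. The probe was well above background in both channels on every array. In the raw red values the control and N1N2 plus Lrp6 groups touched: replicate 1 with both treatments, at 6445, lay above the lowest control array, at 6353. The normalised ratios of these arrays did not overlap.

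**Figure D1:**
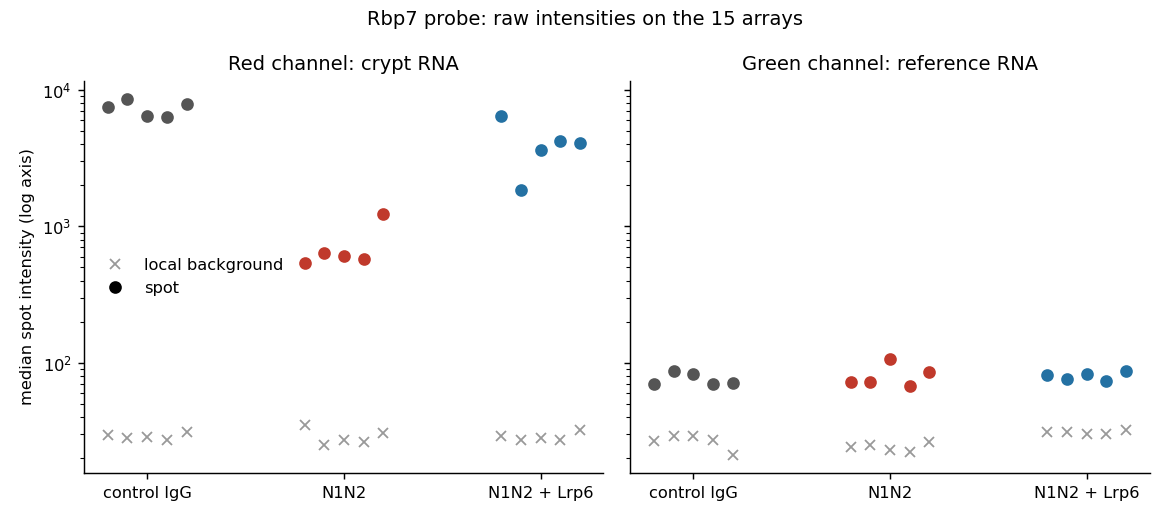
Raw median intensity of the Rbp7 probe (vertical, log axis) in the red channel (crypt RNA, left) and the green channel (reference RNA, right) on the 5 arrays of each group, with the local background as crosses. Red intensity is lowest on the N1N2 arrays, at 537 to 1236, while green intensity stays between 68 and 106.

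Rbp7 is known from endothelial and fat cells as well as from gut epithelium, and the markers of those cells are given beside it. Of 12 endothelial markers, 9 could be tested, and none rose or fell between the N1N2 and control groups, while 1 fell with the Lrp6 antibody added. Mean log2 ratios of the list were -0.13 ± 0.05, -0.06 ± 0.08 and -0.11 ± 0.11 (SD, n = 5 each; control, N1N2, N1N2 plus Lrp6), and their summed red intensity spanned 3163 to 5497, 2509 to 4546 and 2554 to 5076. Pecam1, Kdr, Esam, Egfl7, Plvap, Eng and Vwf were well above background on all 15 arrays, Cldn5 on 14 and Cdh5 on 10. Tek, Tie1 and Emcn were so on only 4, 1 and 2 of the 15 arrays. Of 5 adipocyte markers, Retn and Cfd were well above background on 14 of the 15 arrays each and Plin1 on 10. Adipoq was so on 2 and Lep on no array. None of the 3 tested rose or fell. Fabp4, a carrier typical of fat and endothelial cells, is in neither list and is given further on. It fell in the N1N2 group against the control (log2 difference -1.03 ± 0.26, SE). Unlike Rbp7, Fabp4 did not rise with the Lrp6 antibody added (log2 difference -0.09 ± 0.26 from the N1N2 group).

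Markers of mature enterocytes, the absorptive cells, were measured on every array and did not pass the test for any of 12 genes in any comparison. Their mean log2 ratio was 7.06 ± 0.15, 7.26 ± 0.30 and 6.97 ± 0.43 (SD, n = 5 each) in the control, N1N2 and N1N2 plus Lrp6 groups, with summed red intensities of 1338390 to 2283210, 1288620 to 1833950 and 1115120 to 1947110. Secretory progenitor markers went the other way from Rbp7: 6 of 6 rose in the N1N2 group against the control, and 4 of 6 fell with the Lrp6 antibody added. Their mean log2 ratio was 2.41 ± 0.12, 4.54 ± 0.28 and 3.70 ± 0.25 in the same order, with summed red intensities of 18743 to 22178, 46880 to 130396 and 27586 to 83440. Of the smaller lists, 2 of 5 goblet cell markers rose in the N1N2 group against the control and 1 fell with the Lrp6 antibody added, and none of 3 Paneth cell markers passed in any comparison. Of the 3 stem cell markers tested, 1 passed in both steps in the same directions as Rbp7. This was Ascl2, a transcription factor of crypt stem cells, which fell by 1.45 ± 0.24 in the N1N2 group (log2, SE, adjusted p = 0.00143). It rose by 1.32 ± 0.24 with the Lrp6 antibody added (adjusted p = 0.00263). Another of the 3 fell with both treatments against the control. In the limma fit, 3 of the 3 had an unadjusted p under 0.05 in N1N2 against control, with a median difference of -0.55. With the Lrp6 antibody added against the N1N2 group, 2 did, with a median of 0.29. The mean log2 ratio of the stem cell list was 2.80 ± 0.28, 1.97 ± 0.42 and 2.28 ± 0.37, with summed red intensities of 14406 to 21390, 4548 to 16737 and 5784 to 20806. The part of these lists in the Rbp7 values was not tested.

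Rbp2, the cellular retinol-binding protein of absorptive enterocytes, was the nearest relative of Rbp7 among the 9 genes and did not share its pattern. Its log2 ratio was 6.16, 5.88, 5.96, 6.00 and 6.07 on the control arrays. On the N1N2 arrays it was 6.58, 5.99, 6.19, 6.01 and 6.28. With both treatments it was 6.03, 7.01, 6.06, 6.37 and 6.11, and only replicate 2 of that group stood apart. The 3 groups overlapped. Rbp2 differed by 0.20 ± 0.16 between the N1N2 and control groups and by 0.10 ± 0.16 between the N1N2 plus Lrp6 and N1N2 groups (log2, SE), and the first of these turned to -1.47 when the arrays were scaled to the same spread. The Rbp2 probe was bright in red on all arrays, at 11166 to 32196.

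Rdh10 oxidises retinol to retinal, the first and rate-limiting step towards retinoic acid in the embryo. Its log2 ratio ranged from 0.51 to 1.04 in the control, 0.39 to 0.83 in the N1N2 and 0.16 to 0.75 in the N1N2 plus Lrp6 group, and the groups overlapped. The differences were -0.17 ± 0.13 for N1N2 against control, -0.17 ± 0.13 for N1N2 plus Lrp6 against N1N2 and -0.35 ± 0.13 for N1N2 plus Lrp6 against control. The lowest arrays, replicates 1 and 2 with both treatments, lay on slide 5, and without that slide the last difference was -0.03, from 1 array.

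Aldh1a1, a retinal dehydrogenase that makes retinoic acid, was lower in the N1N2 group by a narrow margin. On the control arrays its log2 ratio was 3.99, 3.71, 3.93, 3.82 and 3.83, and on the N1N2 arrays 3.69, 3.09, 3.01, 2.85 and 3.51. With both treatments it was 3.44, 3.75, 2.94, 4.02 and 3.80, a spread that covered most of both other groups. The highest N1N2 array lay 0.01 below the lowest control array. Aldh1a1 was 1.54-fold lower in the N1N2 group than in the control group (log2 difference -0.63 ± 0.19, SE) and differed by 0.36 ± 0.19 between N1N2 plus Lrp6 and N1N2. Within slide 2 the difference from the control was -0.43, and with the arrays scaled to the same spread it was -1.63 and not past the threshold.

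Aldh1a3, another retinal dehydrogenase, was lower in both treated groups. Its log2 ratio was 1.10, 1.39, 1.74, 1.87 and 1.34 on the control arrays and 0.32, 0.61, 0.51, 0.54 and 0.34 on the N1N2 arrays. With both treatments it was -0.22, 0.36, 0.92, 0.52 and 0.70. Both treated groups lay wholly below the control group and overlapped one another. Aldh1a3 was 2.03-fold lower in the N1N2 group (log2 difference -1.02 ± 0.18, SE) and 2.04-fold lower with both treatments (-1.03 ± 0.18) than in the control, and the treated groups differed by -0.01 ± 0.18. With both treatments Aldh1a3 and Rbp7 lay about as far below the control, at -1.03 and -0.90, while against the N1N2 group Aldh1a3 differed by -0.01 and Rbp7 by 2.29.

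The Aldh1a3 probe was dim, with red intensities of 224 to 422 on the control arrays, 93 to 155.5 on the N1N2 arrays and 52 to 164 with both treatments, where it was not well above background on 1 array. Its green intensity, 46 to 61, was well above background on only 3 of 15 arrays. The offset of 50 added to both channels draws the ratios of such a probe towards 0. In the log ratio of the scanner software, the Aldh1a3 differences were -1.95 and -1.99 in place of -1.02 and -1.03. That ratio leaves out the offset and also the other background and normalisation steps used here. The part of the offset alone was not tested. Within slide 2 the N1N2 group was 1.14 below the control on the log2 scale.

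The mean log2 ratios of the immune and of the stromal and muscle lists were also lower in both treated groups than in the control, though few of their genes passed the test. Mean log2 ratios of the immune list were 2.33 ± 0.20, 1.91 ± 0.29 and 1.94 ± 0.20 (control, N1N2, N1N2 plus Lrp6), with summed red intensities of 107448 to 197329, 40686 to 110856 and 45786 to 132258. Of 10 tested, 3 fell in the N1N2 group against the control and none passed with both treatments against the control, and Csf1r had higher means in both treated groups (differences of 0.10 and 0.16, not past the threshold). The stromal and muscle markers had means of -2.83 ± 0.33, -3.16 ± 0.13 and -3.64 ± 0.34, with summed red intensities of 14143 to 29177, 10676 to 19033 and 6313 to 16602 (SD, n = 5 each), and 2 of 14 fell in each of these comparisons. With both treatments against the control, 12 of the 14 had an unadjusted p under 0.05 in the limma fit, and their median difference was -0.72. Against the N1N2 group, 5 of the 14 fell with the Lrp6 antibody added. In the N1N2 group against the control, some differed the other way without passing, such as Pdgfrb and Acta2, by 0.38 and 0.33. Pdgfra was well above background on 5 of 15 arrays. Their part in the Aldh1a3 values, and in those of Aldh1a2, Scarb1 and Fabp4 given further on, was not tested.

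Dhrs3 reduces retinal back to retinol and is a known target of retinoic acid. Its log2 ratio was 1.20, 1.53, 1.55, 1.59 and 1.18 on the control arrays and 1.61, 1.63, 1.63, 1.58 and 1.44 on the N1N2 arrays. With both treatments it was 0.55 on replicate 1 and 1.54 to 1.76 on the others. The groups overlapped, and the differences were 0.17 ± 0.18, -0.18 ± 0.18 and -0.01 ± 0.18 (SE) for N1N2 against control, N1N2 plus Lrp6 against N1N2 and N1N2 plus Lrp6 against control. The sign of the first was not kept: it was -0.07 with median centring and -0.23 with the arrays scaled to the same spread. Without replicate 1 of the N1N2 plus Lrp6 group, the second difference was 0.03.

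Cyp26b1 hydroxylates retinoic acid and so starts its breakdown. Its log2 ratio was -1.73 to -1.04 in the control, -1.69 to -1.14 in the N1N2 and -1.52 to -1.16 in the N1N2 plus Lrp6 group, so that the ranges of the treated groups lay inside that of the control. The differences were -0.03 ± 0.13, 0.01 ± 0.13 and -0.03 ± 0.13 in the same order as for Dhrs3, and the first was 0.36 with the arrays scaled to the same spread. Its probe was well above background in both channels on all 15 arrays, with red intensities of 80 to 204.5.

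Bco1 cleaves beta-carotene to retinal in the enterocyte. The ranges of its log2 ratio were 0.28 to 0.66, 0.24 to 0.70 and 0.24 to 0.60 in the control, N1N2 and N1N2 plus Lrp6 groups, nearly the same span in each. The differences were 0.08 ± 0.10, -0.12 ± 0.10 and -0.04 ± 0.10, and the first was -0.06 with the arrays scaled. They depended on the processing. Over 11 settings they ranged from -0.06 to 0.57, from -1.12 to -0.08 and from -0.55 to 0.01. Its red signal was well above background on 11 of 15 arrays, 2 of them with both treatments, and its green signal on none.

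Rarb is a retinoic acid receptor and itself a textbook target of retinoic acid. The brighter of its probes (A_55_P1962154) had log2 ratios of -0.99, -0.87, -0.86, -1.07 and -1.06 on the control arrays and -1.04, -1.33, -1.13, -1.15 and -1.32 on the N1N2 arrays. With both treatments they were between -1.14 and -0.99, inside the span of the other groups. The difference between N1N2 and control was -0.22 ± 0.07 (SE), and the groups overlapped by 0.03. With the arrays scaled to the same spread it was 0.09, and over 11 settings it ranged from -0.46 to 0.09. The other Rarb probe (A_55_P2084807) was not well above background in red on any array, and it was the only one of the 10 probes left out by the filter on dim probes. The probe that passed was dim too, with red intensities of 72 to 148.

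**Figure D2:**
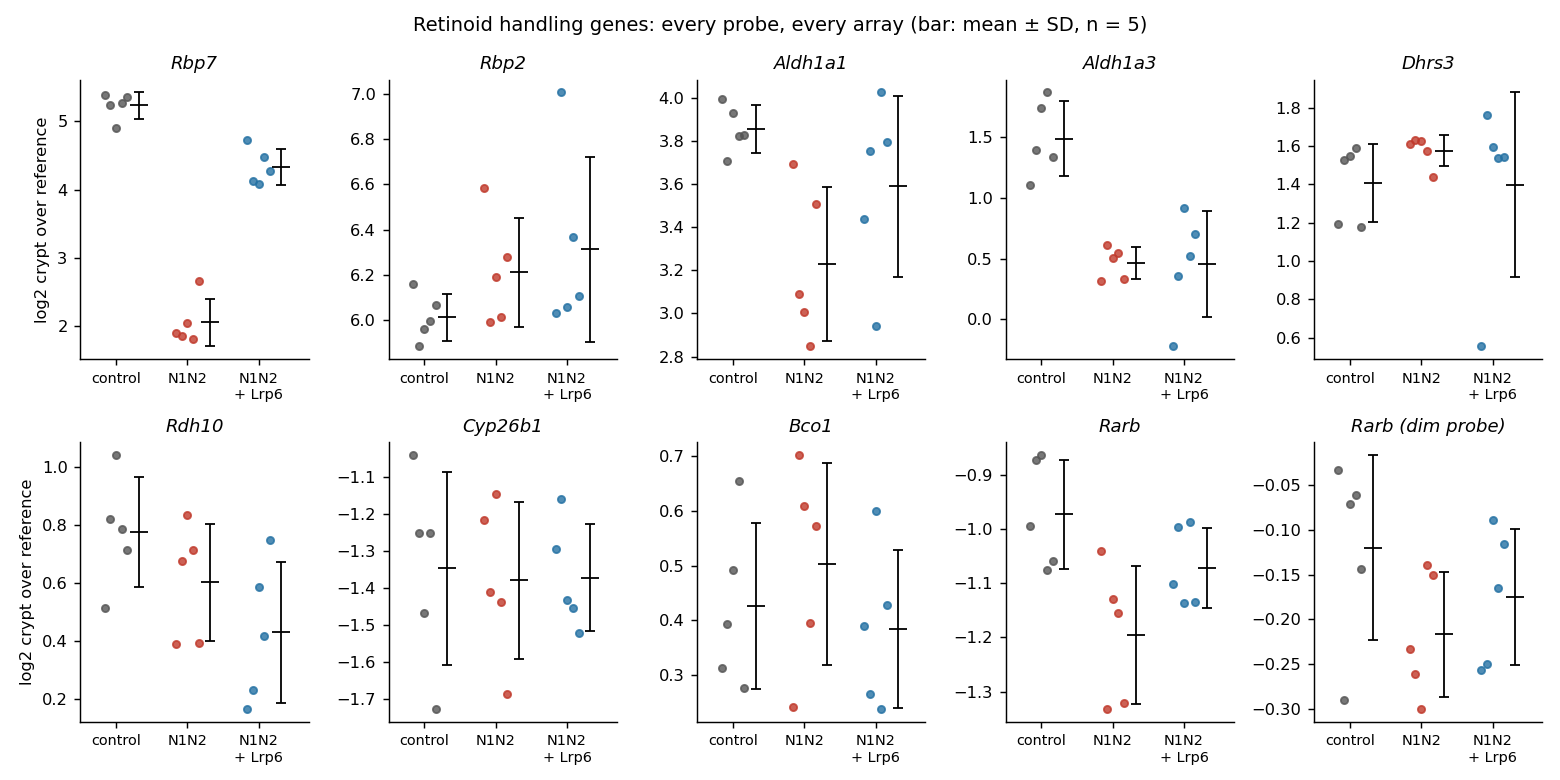
Log2 ratio of crypt over reference (vertical axis, a separate range in each panel) for each of the 10 probes on the 5 arrays of each group, with the group mean ± SD beside the points. The 3 groups separate for Rbp7, both treated groups lie below the control for Aldh1a3, and the groups overlap for the other probes except Aldh1a1 in N1N2 against control.

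Of the 9 genes, 3 were past the threshold of the fit (adjusted p under 0.05) as lower in the N1N2 group than in the control, namely Rbp7, Aldh1a1 and Aldh1a3. Of all 23933 features 11.7% passed, 6.57% as higher and 5.15% as lower. The groups did not overlap for these same 3 genes, nor for 12% of all features, 6.14% with the N1N2 group higher and 5.9% with it lower. With the Lrp6 antibody added, 1 of the 9, Rbp7, was past the threshold as higher than in the N1N2 group and did not overlap with it. There 16.7% of all features passed, 9.45% as higher and 7.26% as lower, and 10.2% did not overlap, 6.13% higher and 4.02% lower. Between N1N2 plus Lrp6 and control, Rbp7 and Aldh1a3 were past the threshold as lower and did not overlap. There 0.376% of all features passed, 0.221% as higher and 0.155% as lower, and 2.58% did not overlap, 1.51% higher and 1.07% lower. Since the genes were chosen with these values known, nothing is read from the counts. The median difference over the 9 genes was -0.17, 0.01 and -0.10 in the 3 comparisons, beside 0.00, -0.00 and 0.01 over all features.

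The place of Aldh1a1 in this count was not stable. It was not past the threshold when control replicate 1, 2, 3, 4 or 5 or N1N2 replicate 2, 3 or 4 was left out, and the difference from the control ranged from -0.74 to -0.53 over all arrays left out in turn. Rbp7 in N1N2 plus Lrp6 against control was not past it without control replicate 2, 4 or 5 or N1N2 plus Lrp6 replicate 2, 3 or 4, with differences of -0.93 to -0.84 in those fits. Aldh1a3 in that comparison was not past it without control replicate 2, 3, 4 or 5 or N1N2 plus Lrp6 replicate 2 or 4, with differences of -1.15 to -0.86. Rarb, in turn, passed as lower in the N1N2 group without N1N2 replicate 1 (log2 difference -0.26), and Aldh1a1 as higher with both treatments than in the N1N2 group without N1N2 plus Lrp6 replicate 3 (0.52). As the genes were chosen with these values known, the refits describe how the calls moved and are no test of the genes.

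**Figure D3:**
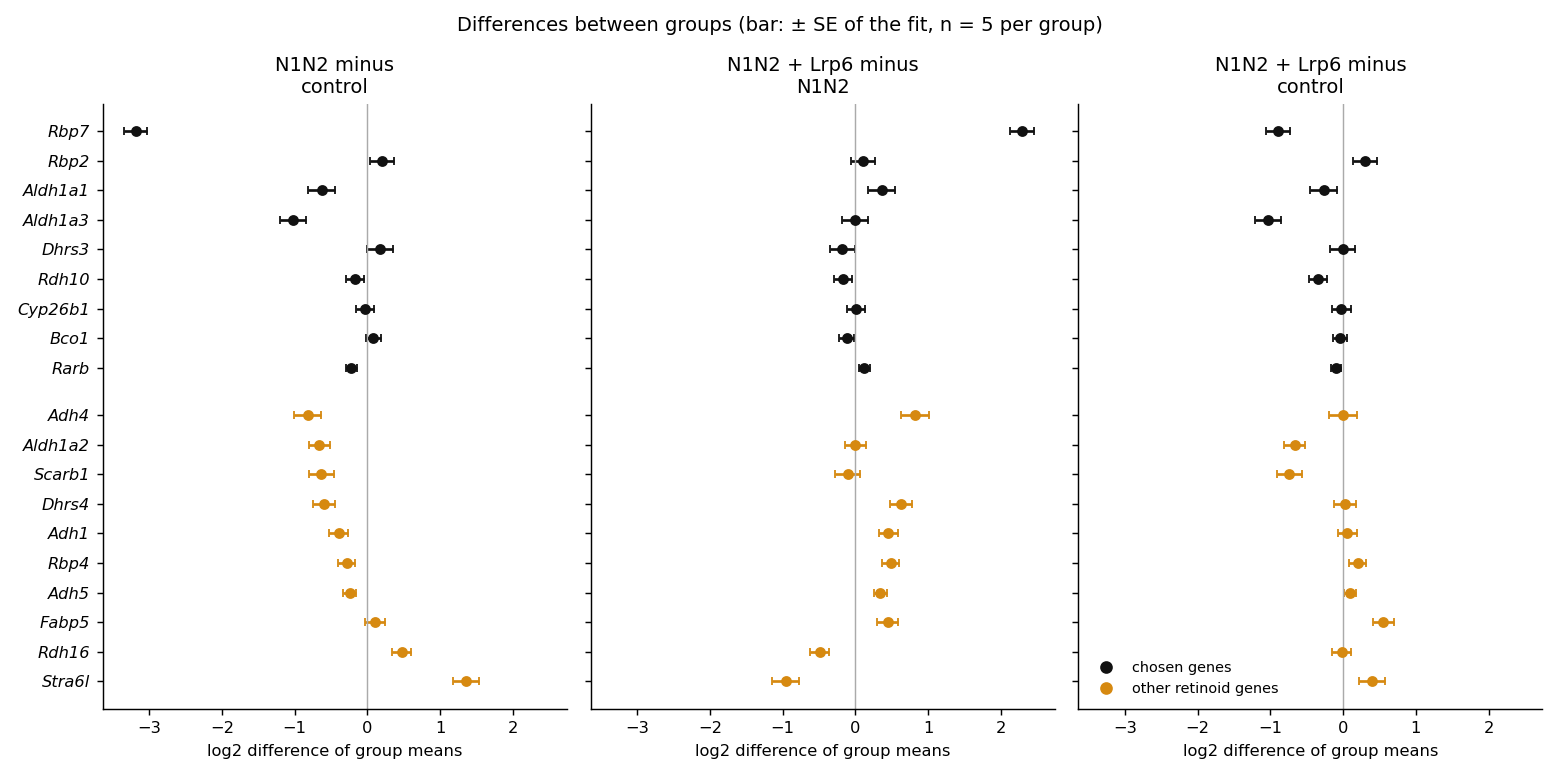
Difference of group means on the log2 scale (horizontal axis, with the SE of the fit) for the 9 chosen genes (black) and the 10 other retinoid genes that passed the threshold in at least 1 comparison (orange), in the 3 comparisons. Rbp7 is the farthest point from 0 in the first 2 comparisons, at -3.19 and 2.29.

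A wider list of 44 other retinoid genes was set beside the 9, and 40 of them passed the filter on dim probes. Sdr16c5, Adh7, Cyp26a1 and Cyp26c1 did not, so the only clearing enzyme measured was Cyp26b1. Between the N1N2 and control groups 2 rose and 4 fell of the 40, and 34 did not pass, where 11.7% of all features passed. With the Lrp6 antibody added 6 rose and 2 fell against the N1N2 group, where 16.7% of all features passed. The list was chosen with earlier results of these data known, so nothing is read from these counts. None passed in the limma fit between N1N2 plus Lrp6 and control, where 4 had an unadjusted p under 0.05, and 2 passed without either control replicate 1 or N1N2 plus Lrp6 replicate 5. The median difference of the list was 0.03, 0.01 and -0.01 in the 3 comparisons.

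Among the uptake genes, Stra6l, the cell-surface receptor for circulating retinol-binding protein outside the eye, ran opposite to Rbp7. Its log2 ratio was 1.28, 1.18, 1.04, 1.65 and 1.73 on the control arrays, 2.06, 2.89, 2.94, 2.86 and 2.90 on the N1N2 arrays and 1.84, 1.67, 2.04, 1.93 and 1.37 with both treatments. Every N1N2 array lay above every array of the other groups. Stra6l rose in the N1N2 group by 1.35 ± 0.18 (log2, SE; adjusted p = 0.000254) and fell with the Lrp6 antibody added, by 0.96 ± 0.18 (adjusted p = 0.00344). Fitted with slides as a block, a contrast that rests on the 4 arrays of slide 2, the first change was 0.78 and did not pass (adjusted p = 0.122), and of the list only Adh4 still passed.

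Scarb1, a scavenger receptor that takes up carotenoids, fell in the N1N2 group against the control by 0.63 ± 0.17 (adjusted p = 0.0256), while a second Scarb1 probe differed by -0.30 ± 0.13 (adjusted p = 0.142). The call on the first probe was lost without control replicate 1 or N1N2 replicate 3 or 5. Neither Cd36 nor Stra6, the receptor of the eye, passed in any comparison.

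Among the enzymes that oxidise and reduce retinoids, 17 of 19 could be tested, and 1 rose and 3 fell in the N1N2 group against the control. Adh4, an alcohol dehydrogenase that accepts retinol, had log2 ratios of 3.76, 3.65, 3.95, 3.77 and 3.50 on the control arrays and 2.78, 2.89, 2.77, 3.05 and 3.02 on the N1N2 arrays. With both treatments they were 3.82, 3.39, 3.06, 4.43 and 3.92. The N1N2 arrays lay below all others. Adh4 fell in the N1N2 group by 0.82 ± 0.19 (adjusted p = 0.0115) and rose with the Lrp6 antibody added by 0.82 ± 0.19 (adjusted p = 0.00857), the same direction in both steps as Rbp7. Neither change passed with the scanner software's log ratio (adjusted p = 0.295 and 0.121).

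Dhrs4, a reductase of retinal, went the same way: it fell by 0.59 ± 0.15 (adjusted p = 0.0213) and rose by 0.62 ± 0.15 (adjusted p = 0.0122). Rdh16, a retinol dehydrogenase, went the other way, with a rise of 0.47 ± 0.13 (adjusted p = 0.0317) and a fall of 0.49 ± 0.13 (adjusted p = 0.0191). The first-step call of Dhrs4 was lost without control replicate 2 or 5, and that of Rdh16 without control replicate 1, 2 or 5 or N1N2 replicate 1, 2 or 3. Aldh1a2, the third retinal dehydrogenase beside Aldh1a1 and Aldh1a3, fell in the N1N2 group by 0.66 ± 0.14 (adjusted p = 0.00871), though its control replicate 1, at 0.06, lay within the N1N2 range of -0.12 to 0.16 and the other control arrays at 0.61 to 1.17. With both treatments Aldh1a2 stayed at the N1N2 level, at -0.15 to 0.12, as Aldh1a3 did.

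Adh1 and Adh5, other alcohol dehydrogenases, rose in the step to both treatments, by 0.45 ± 0.13 (adjusted p = 0.0254) and 0.34 ± 0.09 (adjusted p = 0.0142). Adh5 was well above background on 2 of the 5 arrays with both treatments. Adh1 lost its call without N1N2 replicate 2 or 4 or N1N2 plus Lrp6 replicate 1 or 4. Among the binding proteins, the plasma carrier Rbp4 and the fatty-acid and retinoic acid carrier Fabp5 rose in that step, by 0.48 ± 0.11 (adjusted p = 0.01) and 0.45 ± 0.14 (adjusted p = 0.0435). The Fabp5 call was lost in 10 of the 15 fits that left out 1 array. Of the nuclear receptors Rara, Rarg, Rxra, Rxrb and Rxrg, none passed in any comparison, with differences between -0.24 and 0.21.

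**Figure D4:**
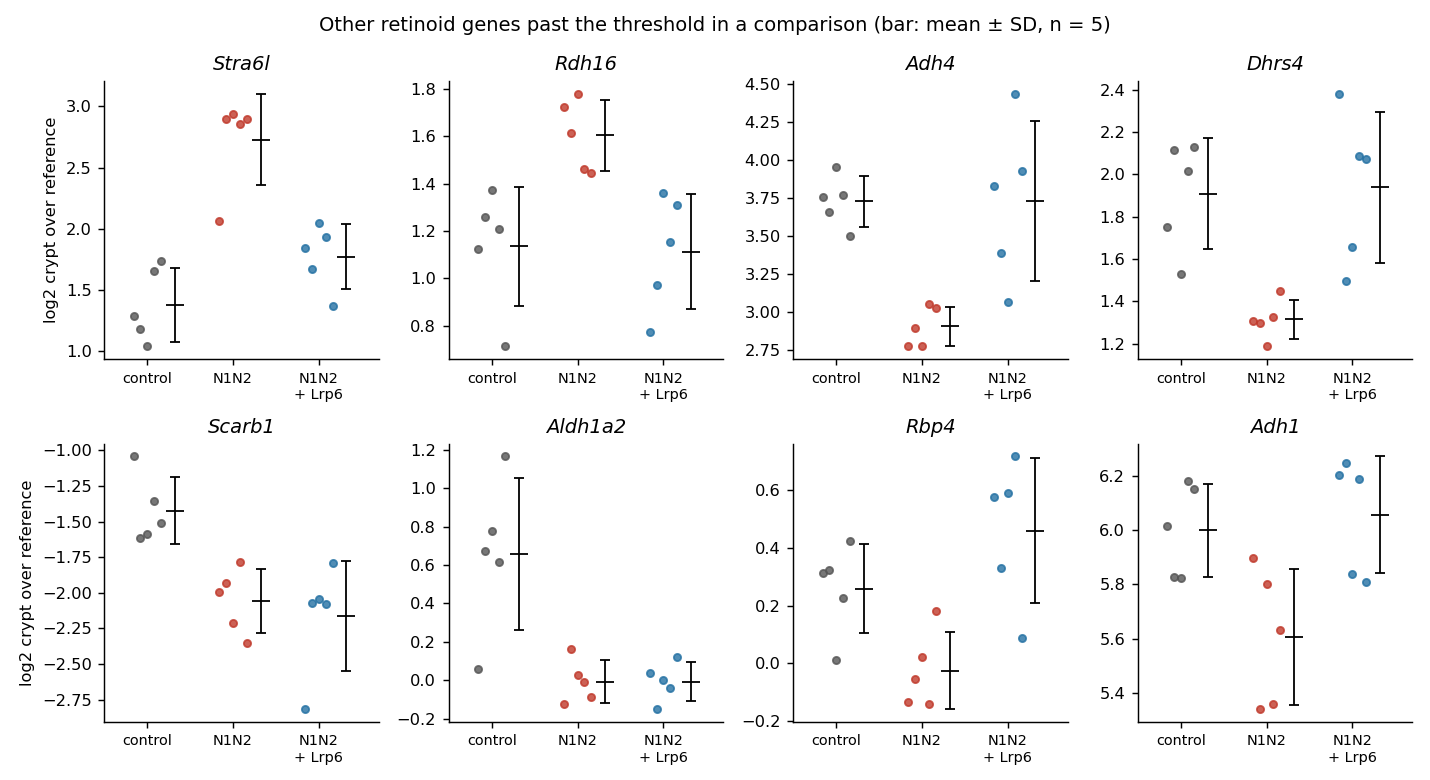
Log2 ratio of crypt over reference (vertical axis, a separate range in each panel) of 8 other retinoid genes on the 5 arrays of each group, with the group mean ± SD. Stra6l and Rdh16 are highest, and Adh4 and Dhrs4 lowest, on the N1N2 arrays, while Aldh1a2 and Scarb1 are low in both treated groups.

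Of the steps against the N1N2 group, those with both treatments rest mostly on slide 5. Without its 4 arrays, 1 gene of the retinoid list, Adh4, still passed, in place of 8, and the fit then rested on a single array for that group. Stra6l was then 1.36 below the N1N2 mean (adjusted p = 0.0773) and Dhrs4 0.76 above it (adjusted p = 0.0958). Rbp4 and Adh5 were then 0.11 and 0.22 above it (adjusted p = 0.794 and 0.482).

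Rbp7 belongs to a family of intracellular lipid-binding proteins, and 11 of 13 other members listed could be tested. Fabp4, the carrier typical of fat and endothelial cells, fell in the N1N2 group against the control by 1.03 ± 0.26 (adjusted p = 0.0194), a call lost without control replicate 5, where the difference was -0.90. With both treatments Fabp4 differed by -0.09 ± 0.26 from the N1N2 group and by -1.11 ± 0.26 from the control, neither past the threshold. Fabp5, given above, rose with the Lrp6 antibody added. The gut carriers Fabp1, Fabp2 and Fabp6 did not pass in any comparison. The median over the 11 was 0.10, -0.09 and 0.01 in the 3 comparisons. Retn and Cfd, which fat cells share, were well above background on 14 of 15 arrays each.

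Over the 15 arrays, the 8 named genes of 15817 whose ratios followed Rbp7 most closely were Cyp39a1 (Pearson r = 0.971), Acsm3 (0.963), Fdx1 (0.957), Gcat (0.955), Add3 (0.953), Sema5a (0.953), Hunk (0.950) and Tomm70a (0.944). Cyp39a1 is a hydroxylase of oxysterols, Acsm3 a mitochondrial acyl-CoA synthetase, Fdx1 an electron carrier of mitochondrial cytochromes P450, Gcat an enzyme of threonine breakdown and Tomm70a a mitochondrial import receptor. All 8 were lowest in the N1N2 group, with differences from the control between -1.39 for Sema5a and -0.51 for Tomm70a, each smaller than the -3.19 of Rbp7. The 4 genes that ran most opposite among those reported were the Notch ligand Dll1 (r = -0.968), Tmem120b (-0.960), Qsox1 (-0.959) and Rapgef3 (-0.957), with differences between 0.98 and 1.95. The arrays share their group, so these r values mostly order the group means. With group means removed, r fell to between 0.20 for Cyp39a1 and 0.80 for Gcat among the 8. The genes were picked for this likeness, so it carries no test.

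None of the others among the 9 chosen genes was close to Rbp7 by this measure. Aldh1a1 had r = 0.69, Rarb 0.63 and Aldh1a3 0.55, which 6.66%, 9.24% and 13.7% of the named genes exceeded. Rdh10 (0.08), Cyp26b1 (0.02), Rbp2 (-0.20), Bco1 (-0.27) and Dhrs3 (-0.38) lay lower. With group means removed, the r of Aldh1a1 was 0.31 and those of Rarb, Aldh1a3 and Dhrs3 were -0.38, -0.59 and -0.64.

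**Figure D5:**
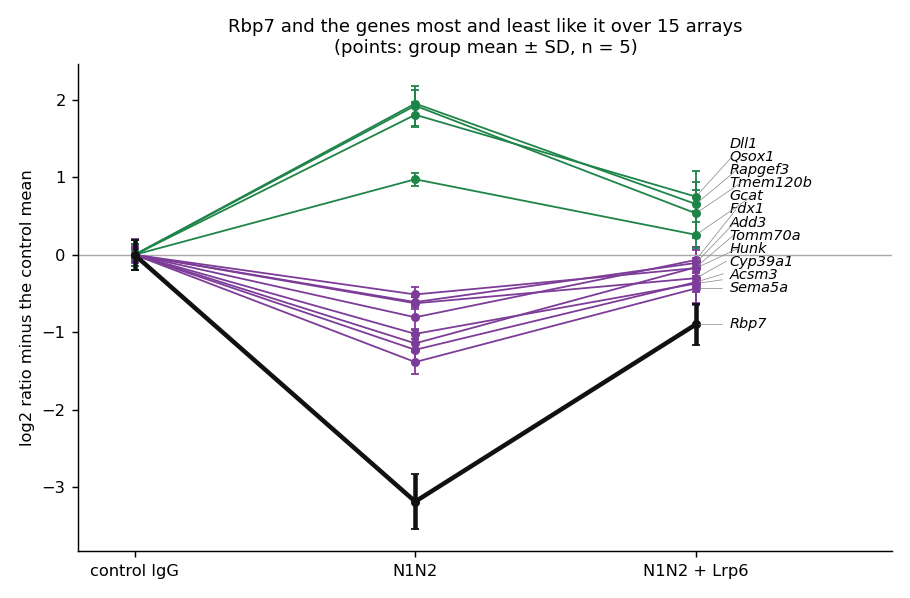
Mean log2 ratio of each group minus the control mean (vertical axis, with the SD over 5 arrays) for Rbp7 (black), the 8 genes most like it over 15 arrays (purple) and 4 that ran most opposite (green). Rbp7 reaches -3.19 in the N1N2 group, below the other 8, which lie between -1.39 and -0.51.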

How the data were processed

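Feature Extraction 11.0.1.1 produced the scanner tables, per the file headers. For every spot the authors deposited raw median intensity and background intensity in both channels, quality flags and the software's log10 ratio. They also deposited a table of log2 values, which correlated with the values computed here at r of at least 0.999981 on every array, with column medians of 0.0144 to 0.0286; the submitters' processing notes name R 3.0.0 and limma 3.6.7.

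Calculations used R 4.3.3 and limma 3.58.1. Spots with flags for non-uniformity or population outliers (306 to 642 of 44397 per array) were left out, background was corrected with normexp (offset 50), ratios were normalised by loess (control spots weighted 0), and spots of a probe were averaged. Kept were probes whose red signal was well above background on 4 or more of the 5 arrays of a group (28480 of 39429), with the brightest probe per gene, giving 23933 features, of which 367 lacked a value on some array. Symbols came from a RefSeq table of assembly GRCm38.p6, matched by accession without version. One limma fit of the 15 arrays (lmFit, eBayes) compared the groups, with Benjamini-Hochberg adjustment over all features and a threshold of 0.05. It was tested on simulated data with independent noise on each array and no slide effects, so that test cannot speak to slides. P-values are two-sided and set each difference between groups against the spread of these arrays within the groups, moderated over all features.

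Named were the 9 genes with every probe, those of the 44 other retinoid genes and of the lipid-binding family past the threshold, and the 8 genes most and 5 least correlated with Rbp7, of which 1 of the least correlated is not reported here. The genes and lists were chosen with earlier results of these data known. Alternatives covered background correction, normalisation, scaling, the deposited values, the filter, probe choice, arrays in the fit, slide and replicate blocks, and each array left out.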

Additional observations from a re-analysis of the deposited data

Results flagged for a closer look

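In groups of 5 arrays, an array was singled out when its gap to the nearest other was over 0.71 of the whole range. Of 99 groups looked at over 33 probes, 7 held such an array, and chance singles out about 1 in 20 groups. Rbp7 was at 2.66 on replicate 5 of the N1N2 group, against 1.81 to 2.03 on the others. Dhrs3 was at 1.44 on that same array, against 1.58 to 1.63, and at 0.55 on replicate 1 of the N1N2 plus Lrp6 group, against 1.54 to 1.76. Stra6l was at 2.06 on replicate 1 of the N1N2 group, against 2.86 to 2.94, and Sema5a at -0.72 on that array, against -0.39 to -0.32. Scarb1 was at -2.82 on replicate 1 of the N1N2 plus Lrp6 group, against -2.08 to -1.79. Fdx1 was at 0.72 on control replicate 1, against 0.50 to 0.56.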

How the results depend on the processing

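No result turned its called direction. Rbp7 in N1N2 against control was -4.35 to -3.15 over 11 settings and 2.23 to 2.60 in N1N2 plus Lrp6 against N1N2. Against control it was -0.90, -1.91 with arrays scaled to the same spread and not past the threshold there, with median centring, with the scanner's log ratio or without slide 5. The features past the threshold in N1N2 against control were 2806 (1573 higher), and 1252 with median centring (573 higher), 675 with arrays scaled to the same spread (474 higher), 261 with slide as a fixed block and 1546 to 3903 without 1 array. In N1N2 plus Lrp6 against N1N2 they were 3998 (2261 higher), and 3414 with median centring (2634 higher), 375 scaled, 7039 with slide as a random block, 217 without slide 5 and 2515 to 4741 without 1 array. Against control they were 90, and 30 with median centring, 138 with the scanner's log ratio, 1 scaled, 50 with only the groups compared, 2914 with the random block, 2 without slide 5 and 26 to 348 without 1 array. The retinoid list gave 6 in the first comparison, and 0 scaled, 1 with the fixed slide block and 4 to 7 without 1 array; 8 in the second, and 5 with the scanner's log ratio, 0 scaled, 1 without slide 5 and 6 to 9 without 1 array; and 0 in the third, with 4 under the random block and 0 to 2 without 1 array. Leaving out slide 5 was chosen after seeing the data. The random block used a fitted correlation of -0.18. Same-numbered arrays of N1N2 and control deviated together in 4 of 5 pairs (r of 0.62, 0.29, -0.01, 0.38 and 0.13; over 0.1 counted), and in none of the 10 pairs with N1N2 plus Lrp6 (-0.43 to 0.10), so that not every pair did and the numbers were not taken to pair the arrays; the replicate block gave 2433, 3708 and 44 features. The cause of these changes was not tested. The number of arrays limits the precision, and the Bco1, Aldh1a3 and Rarb probes were dim.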
